A study of Mus musculus with 2 samples.

Results

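Antisense transcripts run along the strand opposite an annotated gene. Long-read RNA-seq of the gastrocnemius, the main calf muscle, of male B6CASTF1/J mice aged 4 days gave 29088 unannotated models of this kind, out of 240420 transcript models counted in the 2 libraries. Every model that the deposited tables class as Antisense was taken, spike-ins and 1 interval of chromosome 12 were left out, and models that overlapped on the same strand were merged into 1 locus, which gave 21186 loci. B6CASTF1/J mice are the F1 offspring of the inbred strains C57BL/6J and CAST/EiJ, the second a wild-derived strain. The study has 1 group, with 2 replicates made from 2 µg of total RNA each, no treatment and no control group, so the values below describe this muscle and the spread between its libraries. The labels record a separate tissue sample for each replicate but the same donor entry for both, so the spread between them may be partly technical. A model is a read structure with a strand, exon ends and a count, and a count is 1 read. RNA came from whole tissue, where fewer cells of a type and less RNA per cell cannot be told apart.

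Natural antisense transcripts are made from the DNA strand opposite a gene and can share sequence with its mRNA, begin near its promoter, or run in from beyond its 3′ end. Some of them are known to silence their partner gene, as Airn does at an imprinted cluster of the mouse, and some form double-stranded RNA with it. An antisense read can also arise while cDNA is made, when the reverse transcriptase primes inside a molecule at a run of A or copies an already copied strand. Splice sites read GT and AG at the first and last bases of nearly all introns, so the same intron read on the wrong strand shows CT and AC.

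The bases just past the 3′ ends of the most abundant loci are shown first, because the 3′ ends are where antisense models stood apart from the other unannotated classes that could be measured. Each line gives the 20 bases that follow the end of the model on the model's own strand, 5′ to 3′, in mm10 from GENCODE M21 exons, and capitals mark runs of 6 or more A. Of the 20 loci with the most counts, 32 library-by-locus windows lay in an annotated exon, and 12 of these held at least 12 A. Actb, Cavin1, Pitpnc1, Sept2 and 2900097C17Rik were A-rich in both libraries, and Tubb5 and Tmem170b in replicate 2 only. The loci opposite 2900097C17Rik and Tmem170b are not printed, and the last 2 lines are loci without such a run.
opposite Actb, both replicates, chr5:142903655-142903674, plus strand: AAAAAAAAAAAAAAAAAAAA
opposite Cavin1, replicate 1, chr11:100958476-100958495, plus strand: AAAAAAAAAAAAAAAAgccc
opposite Pitpnc1, replicate 1, chr11:107211763-107211782, plus strand: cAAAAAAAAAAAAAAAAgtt
opposite Tubb5, replicate 2, chr17:35834694-35834713, plus strand: aaaaaccAAAAAAAAAAAAA
opposite Tubb5, replicate 1, chr17:35834987-35835006, plus strand: cctcctcttctgcctcctct
opposite Sept2, replicate 1, chr1:93507834-93507853, minus strand: accaaacAAAAAAcAAAAAA
opposite Klhl31, replicate 1, chr9:77656762-77656781, minus strand: cctggtctacttaatgaaac
opposite Plagl1, chr10:13113424-13113443, minus strand: gttgcctatttattgttcga

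Antisense models held 35064 of 1039740 mouse counts in replicate 1 and 50317 of 1085083 in replicate 2. These are 3.37% (exact Clopper-Pearson 95% interval 3.34 to 3.41%) and 4.64% (4.60 to 4.68%), with a mean of 4.00% ± 0.894 (SD, n = 2). The gap between the replicates was far wider than either interval, which covers counting error only. Genomic models, which overlap a gene on its own strand without its splicing, held 2.92% and 3.24%, and intergenic models held 0.366% and 0.453%. The libraries differed in more than antisense RNA. Summed epidermal markers (Krt10, Krt1, Krt14, Krt5 and Lor) had 4 counts in replicate 1 and 869 in replicate 2, where Krt1 and Lor were listed at 0 in replicate 1. The myelin genes Mbp and Pmp22 had 329 and 743 counts in replicate 1 and 989 and 1689 in replicate 2. Fibroblast markers had 35000 counts in replicate 1 and 23672 in replicate 2, with Col1a1 at 12494 and 6976, Col3a1 at 21692 and 15727 and Dcn at 814 and 969. Skeletal muscle markers had 98015 and 119138, although Myh8 had 6744 and 4253 and Des 5100 and 4107. Their part in the antisense difference was not tested.

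Most loci were seen once. Of the 21186 loci, 11595 (54.7%) had a single count over both libraries and 3453 had 2. Replicate 1 had counts at 12047 loci and replicate 2 at 16007. Both libraries had counts at 6868 loci (32.4%), and these held 82.3% of the antisense counts of replicate 1 and 75.1% of those of replicate 2. At the top, 35 loci reached 100 counts in sum, all 35 were counted in both libraries, and they held 21.7% and 17.4% of the antisense counts. Exact ends rarely recurred: 982 models had the same start and end in both libraries.

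The opposite genes were mostly protein-coding. A gene annotated on the other strand was found for all but 186 loci, 20184 loci (96.1%) lay opposite a protein-coding gene, and 325 lay opposite a lincRNA. Of the 17859 annotated genes with a count, 8077 (45.2%) had an antisense locus. Long genes had many: the dystrophin gene Dmd had 41 loci, Fgfr2, a fibroblast growth factor receptor, had 34, Auts2 had 31, and Ttn, the giant sarcomere protein titin, had 22. Over the 8646 opposite genes, Spearman's rho was 0.53 between the number of loci and gene length, and 0.28 between antisense counts and the gene's own counts. Genes are not independent replicates, and the points share libraries and depth, so these are descriptions. A few loci overlapped the span of a gene annotated on their own strand. For 295 it was a GENCODE M21 gene, and for 618 others a RefSeq (GRCm38.p6) gene. Only the 27025 of 49997 RefSeq genes with a known strand were searched. Spans include introns, so such an overlap does not show that the locus is part of that gene. Another 1539 (7.26%) began within 5000 bases downstream of a gene on their own strand.

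**Figure D1:**
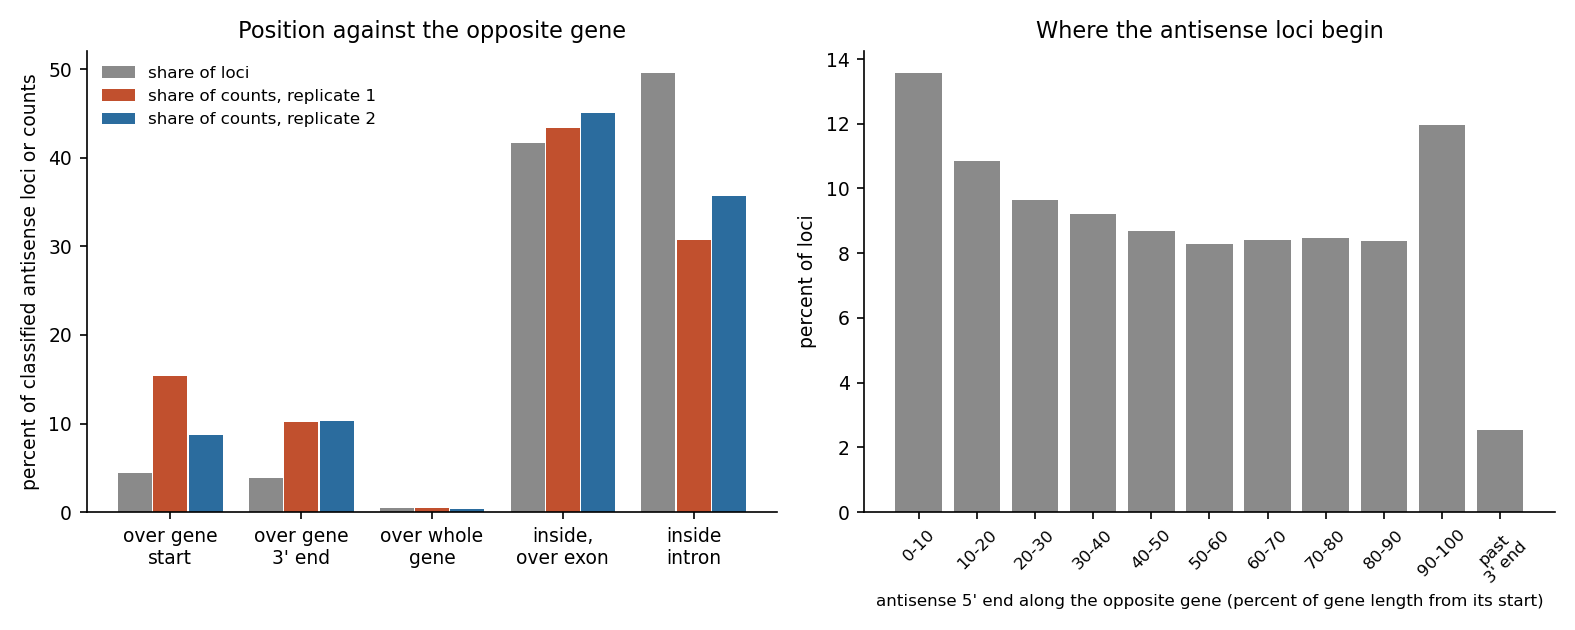
Left, percent of the classified antisense loci (grey) and of their counts in replicate 1 (orange) and replicate 2 (blue) by position against the opposite gene. Right, percent of loci by where their 5′ end falls along the opposite gene, in 10% bins of its length; the first bin (13.6%) and the last (11.97%) stand above the middle.

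Loci lay mainly inside genes. Of the 21000 loci with an opposite gene, 10420 (49.6%) lay wholly in its introns and 8757 (41.7%) lay inside it over an exon. Loci that covered the last base of the gene numbered 803 (3.82%), loci that covered its first base 924 (4.4%), and loci that covered the whole gene 96 (0.457%). Loci at the 3′ end were the more abundant and the more repeatable. They held 10.1% of antisense counts in replicate 1 and 10.2% in replicate 2, and 46.0% of them were counted in both libraries, against 27.4% of intron loci and 33.1% of start loci. Among the 522 loci with at least 20 counts in sum and an opposite gene, 63 (12.1%) were at the 3′ end, 283 (54.2%) over an exon, 154 (29.5%) in an intron and 18 (3.45%) at the start. Start loci held 15.4% and 8.66% of the counts, and without the single locus opposite Gm26917 4.39% and 3.07%. The largest 3′ end locus, opposite Klhl31, held 808 and 1082 of the 3529 and 5124 counts of its class.

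The plot of 5′ ends along the gene shows where antisense loci began. Long reads can be incomplete at their 5′ end, so the 5′ end of a model need not be a transcription start. The first 10% of the opposite gene's length held 13.6% of 5′ ends and the last 10% held 11.97%, against 8.28% in the bin just past the middle, and 530 loci (2.52%) began past the 3′ end. Within the first 1000 bases of the opposite gene 681 loci (3.24%) began. A locus must overlap the gene, so transcripts that begin upstream of it are not counted here. The 681 loci held 788 and 867 counts in replicates 1 and 2. Many ends fell on annotated bases: 29.5% of models in replicate 1 and 27.2% in replicate 2 had their 5′ end exactly on an annotated exon boundary. Of the 803 loci at a 3′ end, 340 (42.3%) began on the very last base of the opposite gene. Whether the authors' pipeline placed read ends on annotated ones is not stated in the labels or files used here.

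**Figure D2:**
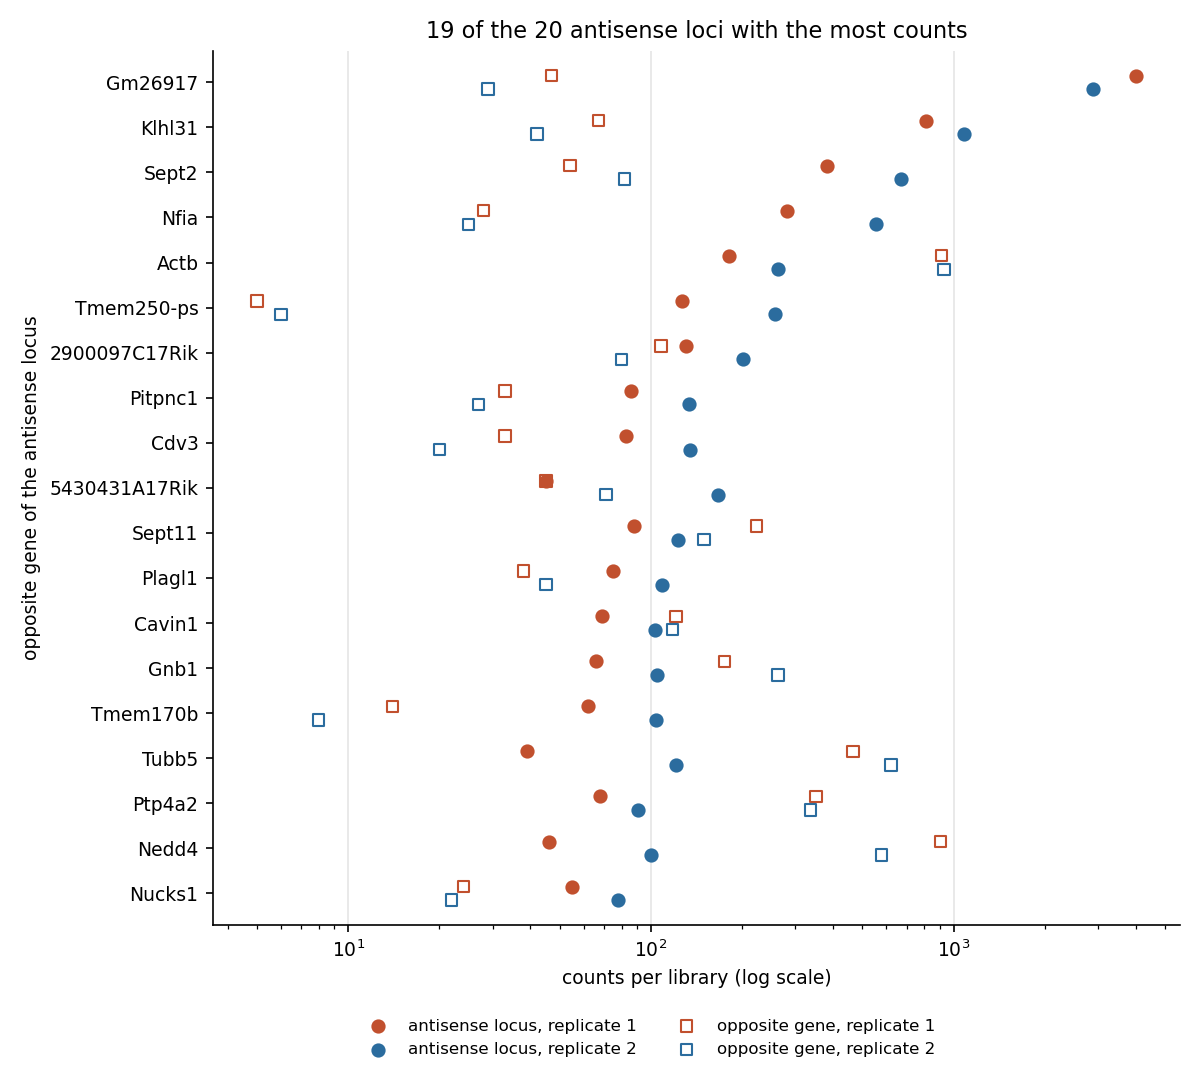
Counts of 19 of the 20 antisense loci with the most counts (filled circles) and of the gene opposite each (open squares), in replicate 1 (orange) and replicate 2 (blue), on a log axis. Antisense counts were above those of the opposite gene in both libraries at 11 of the 19 loci and below them in both at 7.

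The 20 loci with the most counts held 19.8% of antisense counts in replicate 1 and 15.3% in replicate 2. All 20 had only single-exon models, and they spanned 528 to 5386 bases. By position, 11 lay inside a gene over an exon, 8 lay at a 3′ end and 1 at a start. CPM, the counts scaled to the mouse counts of each library, were higher in replicate 2 at 19 of the 20. The exception was the largest.

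That largest locus lay opposite the lincRNA Gm26917, at chr17:39843013-39846245 on the minus strand, with 3997 counts in replicate 1 and 2889 in replicate 2. Its level was 3253 ± 836 CPM (SD, n = 2), and Gm26917 itself had 47 and 29 counts. It held 11.4% and 5.74% of all antisense counts and was the locus that most changed the total: without it the antisense share was 2.99% and 4.37%. Its 5′ end lay 107 bases downstream of CT010467.1, an rRNA gene annotated on the same strand at chr17:39846353-39848827, which had 0 counts in both libraries.

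Next came loci over exons or the 3′ ends of genes with low counts of their own. Klhl31, which encodes a kelch protein of muscle, had a locus at chr9:77656524-77660127 on the minus strand with 808 and 1082 counts, against 67 and 42 for the gene. The antisense level was 887 ± 156 CPM (SD, n = 2). The locus began on the last base of the gene. Sept2, which encodes a septin of the cytoskeleton, had 383 and 671 antisense counts against 54 and 82 for the gene at chr1:93507854-93509733. The locus opposite Nfia, a transcription factor of the nuclear factor I family, had 282 and 554 counts against 28 and 25 at chr4:98111218-98116603. At these 3 loci the antisense counts were above the gene's in both libraries, and no value of the genes reached any of the loci.

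Other abundant loci sat opposite strongly counted genes and stayed below them. Actb, the cytoplasmic beta-actin gene, had 913 and 929 counts, and the plus-strand locus past its 3′ end at chr5:142900968-142903654 had 181 and 262. That locus overlaps Gm38733, a RefSeq gene on the same strand, began 2147 bases past the end of Actb and ended before 20 consecutive A of the genome. Tubb5, a beta-tubulin gene, had 465 and 622 counts and a 3′ end locus with 39 and 121. Nedd4, a ubiquitin ligase gene, had 904 and 578 counts and an exon locus with 46 and 100. Ptp4a2, a phosphatase gene, had 351 and 336 counts and an exon locus with 68 and 91. Tmem250-ps, annotated as a lincRNA, was the opposite case, with 127 and 258 antisense counts and 5 and 6 of its own.

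Across loci with at least 20 counts, an opposite gene and counts in both libraries, 126 of 520 (24.2%) had more counts than the opposite gene in both. A long read is a copy of 1 molecule, so counts were not scaled by length here; scaled per kilobase, by the exon length of the locus and by the longest transcript of the gene, the number was 181. Among the most abundant loci inside introns, those opposite Zbtb20, a zinc finger repressor gene, had 55 and 71 counts against 33 and 17 for the gene, and those opposite Mypn, which encodes the sarcomere protein myopalladin, had 48 and 50 against 175 and 121. At gene starts, the locus opposite the lincRNA Gm26944 had 32 and 35 counts and the gene 0 and 0, which allows up to 3 counts in each library. The start locus opposite Zbtb25 had 27 and 24 counts against 18 and 12. Over whole genes, the loci at Gm20300 had 21 and 24 counts and at Gm43582 17 and 21.

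**Figure D3:**
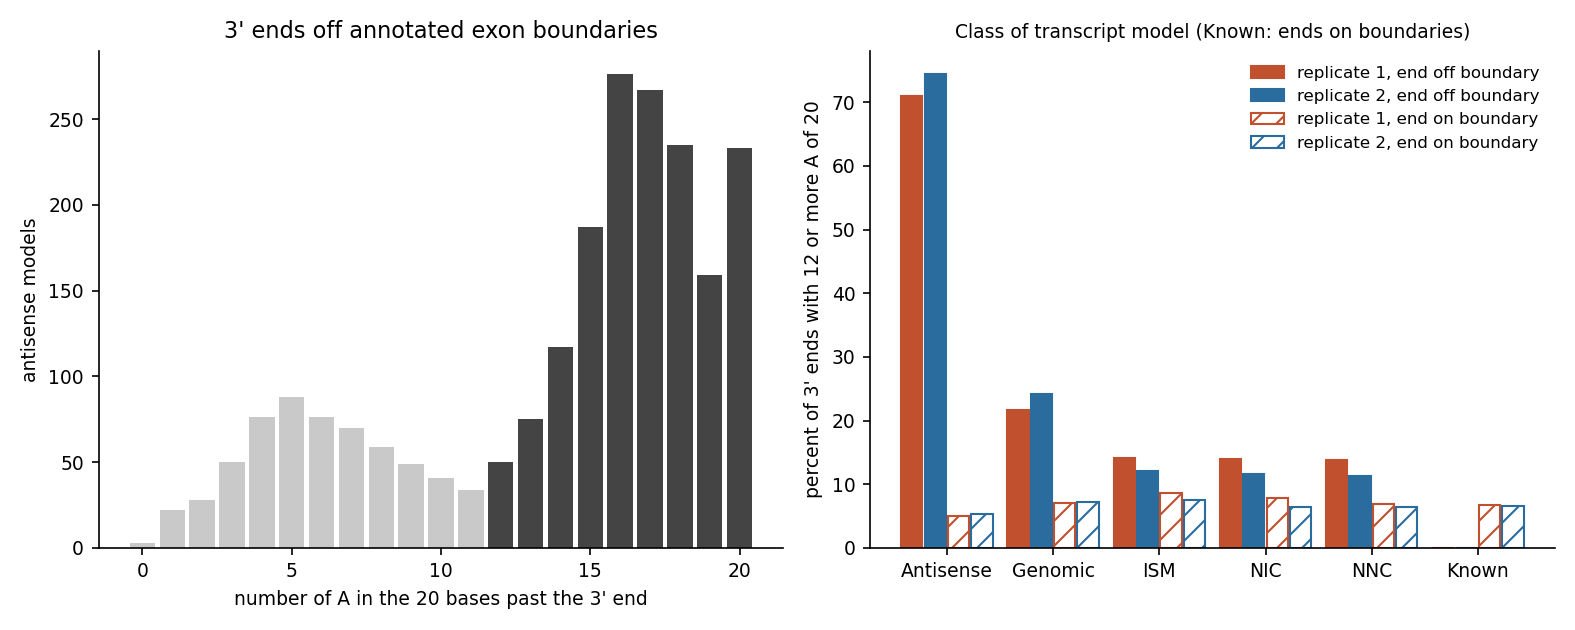
Left, number of antisense models by the count of A in the 20 bases past a 3′ end that lies off annotated exon boundaries, both libraries together; dark bars mark 12 or more A, reached by 1599 of 2195 models. Right, percent of 3′ ends with 12 or more A by class of model, for replicate 1 (orange) and replicate 2 (blue), with ends off boundaries filled and ends on boundaries hatched; Known models end on boundaries only.

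Where they fell off annotated exon boundaries, the 3′ ends of antisense models lay before A-rich sequence more often than those of genomic, ISM, NIC and NNC models, in each library; intergenic models were not measured. The 20 bases past the end could be read for the 5766 models (19.8%) where an annotated exon covers them. At least 12 of the 20 bases were A for 29.9% of these in replicate 1 and 31.8% in replicate 2, a mean of 30.8% ± 1.35 (SD, n = 2). Over all 7558492 windows of 20 bases in the same exons, read on the same strand, 3.34% held that many A. Readable ends were not a fair sample of all ends. Of the 5766, 3571 lay exactly on an annotated exon boundary, but 21.3% and 19.3% of all antisense models ended on one. The pooled share therefore describes readable ends only. The ends split into kinds that differed sharply. Where the 3′ end was off any annotated exon boundary, 70.9% of 981 antisense models in replicate 1 and 74.4% of 1214 in replicate 2 were A-rich, and 233 models had A at all 20 positions. Where the end was exactly on a boundary, 5.0% of 1620 and 5.28% of 1951 were.

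Off boundaries, genomic models were A-rich at 21.6% and 24.2% of ends. Models with an incomplete annotated intron chain (ISM) were at 14.1% and 12.1%, models with a new combination of annotated splice sites (NIC) at 13.9% and 11.6%, and models with a new splice site (NNC) at 13.8% and 11.3%. On boundaries antisense ends were the lowest of the classes measured, at 5.0% and 5.28%, against 6.78% and 6.50% for annotated (Known) ends, 6.99% and 7.24% for genomic, 8.68% and 7.48% for ISM, 7.77% and 6.44% for NIC and 6.86% and 6.35% for NNC ends. The antisense share off boundaries was similar at each abundance, at 71.2% for loci with 1 count, 74.6% for loci with 2 to 9 and 71.5% for loci with at least 10. By position it was 70.9% of 460 ends at a gene's 3′ end, 72.6% of 1614 inside over an exon, 89.4% of 104 in an intron and 43.8% of 16 at a gene start. The polyadenylation signal AATAAA, searched as these letters on the model's strand, was in the last 40 bases of 280 of 5581 models (5.02%) and in 3.48% of all 40-base windows of those exons. The source of the A-rich ends was not tested, and ends in introns and between genes were mostly not analysed here because no genome of the build was used.

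Splicing was rare. Of the antisense models, 783 of 12454 (6.29%) in replicate 1 and 983 of 16634 (5.91%) in replicate 2 had more than 1 exon, and they held 3.17% and 2.75% of the antisense counts. The largest had 13 exons in replicate 1 and 23 in replicate 2. Intergenic models were spliced more often, at 12.5% and 11.5%. By locus, 1532 (7.23%) had a spliced model, 226 had spliced counts in both libraries, and the share by position was 20.5% at gene starts, 15.7% at 3′ ends, 52.1% over whole genes, 8.98% inside over an exon and 3.49% inside introns.

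The spliced models contained 2232 different introns. Of these, 660 (29.6%) had both ends on the ends of an annotated intron of the opposite strand, so that the antisense model carried the intron of the gene it lies against. The share was 34.8% of 1061 introns in replicate 1 and 30.02% of 1379 in replicate 2. No antisense intron equalled an annotated intron of its own strand. Models with annotated introns of their own strand have other classes (Known, ISM and NIC), so the class itself may fix this. The introns shared with the opposite strand were found in both libraries more often, 123 of 660 (18.6%) against 85 of 1572 (5.41%) for the rest. Models whose introns were all shared held 39.9% and 40.7% of the spliced antisense counts.

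The bases at the intron ends are printed to show how these kinds of intron read on the antisense strand. Each line gives 10 bases of exon and 10 of intron across one end, on the strand of the antisense model, 5′ to 3′ in mm10 from GENCODE M21 exons, and capitals mark the first or the last 2 bases of the intron. The first 4 lines are introns shared with the opposite gene, and the last 4 are not shared. Among readable introns not shared and found in both libraries, those opposite Prrg4, from GC to AG, and Gm44950, from CT to GC, are not printed.
opposite Nr2f2, intron chr7:70354932-70357762, plus strand, first: ccacaggcatCTggaagaaa
the same intron, last: tccttcctACctgaggtgaa
opposite Atp2a1, intron chr7:126448383-126448536, plus strand, first: catcccctgtCTgaagacgg
the same intron, last: gacttctcACcatggctgtg
opposite Smg1, intron chr7:118205045-118205108, plus strand, first: agatggctagGTtggtaaag
the same intron, last: aggaagctAGgttggtaaag
opposite Hoxa10, intron chr6:52230336-52231911, plus strand, first: ctccggaaagGTacgcctag
the same intron, last: tttcaaccAGccaggtcaag

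Both ends could be read for 30 of the shared introns. All 30 ran from CT to AC, the reverse complement of a GT to AG intron, and none from GT to AG. Shared introns were defined by the ends of an annotated intron of the other strand, so their letters follow from the grouping and are not a separate result. Of 87 readable introns that were not shared, 74 (85.1%) ran from GT to AG, 8 from GC to AG and 3 from CT to AC. Some of these carried the same letters on both sides of the intron: at the intron opposite Smg1 a stretch of 15 bases occurs at each end, so that its position within that stretch is not fixed by the read. A repeat of at least 6 bases stood across the ends of 9 of 80 introns not shared, and of 0 of 29 shared ones, which allows up to 3 of the 29.

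Shared introns also lay mostly on one strand of the genome. Of the 660, 530 were on the plus strand and 130 on the minus strand, or 80.3% plus (exact 95% interval 77.1 to 83.3%). The interval takes each intron as independent, but introns of 1 model share its strand, so it may be too narrow. Introns not shared were on the plus strand in 52.4% of cases, all antisense loci in 48.8% and annotated introns in 50.2%. Spliced models whose introns were all shared were on the plus strand at 77.9% in replicate 1 and 74.1% in replicate 2. Annotated gene counts were on the plus strand at 47.6% and 47.3%. The 5′ ends of these models were near the opposite transcript's 3′ end more often: 57 of 262 in replicate 1 (21.8%) and 70 of 297 in replicate 2 (23.6%) began within 50 bases of one, against 4.73% and 4.07% of spliced models without a shared intron and 6.91% and 6.30% of single-exon models. What orients these models against the gene was not tested.

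**Figure D4:**
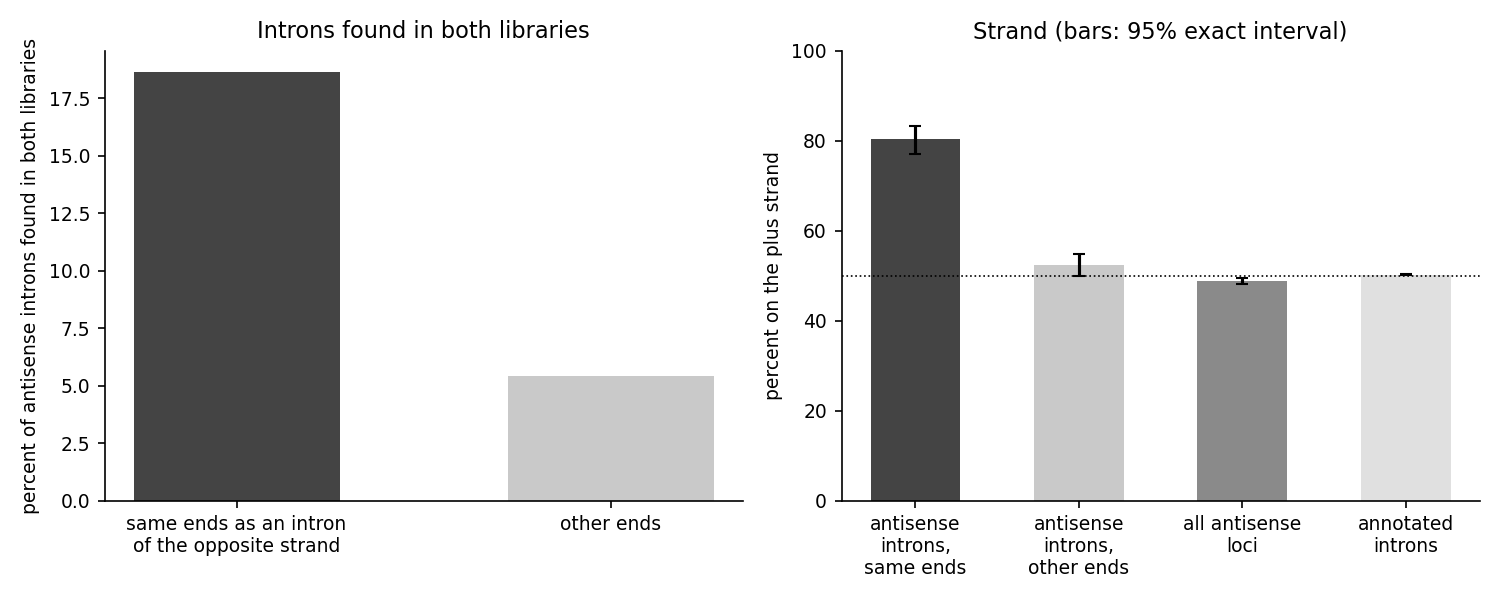
Left, percent of different antisense introns found in both libraries, for introns with the ends of an opposite-strand intron (18.6%) and for the others (5.41%). Right, percent of introns or loci on the plus strand with exact 95% intervals and a dotted line at 50%; introns shared with the opposite strand are at 80.3% and the other 3 groups between 48.8% and 52.4%.

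Among the spliced loci with the most counts, sharing was common. The locus opposite Nr2f2, which encodes the nuclear receptor COUP-TFII, had 18 and 30 counts, of which 13 and 17 were spliced, and 2 of its 2 introns were those of the gene. The locus opposite Prpf38b, a splicing factor gene, had 15 and 31 counts, all spliced, with 1 intron, also shared. Opposite Ccdc80, a gene of an extracellular matrix protein, 36 of 36 counts were spliced in replicate 1 and 0 of 31 in replicate 2, with 2 of 2 introns shared, and other models of the same strand over the locus had 47 and 86 counts. By contrast, the 1 intron of the locus inside Rad52, a recombination gene, was not shared, and 1 of its 27 counts in replicate 1 and 0 of its 22 in replicate 2 were spliced. The locus over the start of Lbx1, a homeobox gene of migrating muscle precursors, had 2 and 8 counts, all spliced, and 1 intron, which was not shared.

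The muscle's own gene groups had antisense counts that were few beside those of the genes. Their own counts were many, 126326 and 141922 for the contractile list, and genes of like abundance were not compared. A locus was found for 69.7% of contractile, 92.3% of calcium-handling, 83.3% of matrix, 57.1% of energy and 68.8% of imprinted genes. Over all annotated genes with a count this share was 45.2%. Of 33 contractile genes, which build the sarcomere, 23 had an antisense locus. Their 92 loci held 290 counts in replicate 1 and 494 in replicate 2, or 0.230 and 0.348 antisense counts per 100 counts of the genes, against 3.49 and 4.88 over all annotated genes. Of 13 calcium-handling genes, 12 had a locus, at 0.140 and 0.325 per 100, and of 14 energy metabolism genes 8 had one, at 0.0404 and 0.0408 (0.0342 and 0.0237 without the locus of most counts). Of 18 matrix genes, 15 had a locus, at 0.280 and 0.476 per 100, or 0.168 and 0.262 without the locus of most counts. The exon locus inside Col1a1, which encodes a chain of type I collagen, at chr11:94952497-94952992, had 51 and 71 counts, against 12494 and 6976 for the gene. Of 16 imprinted genes, 11 had a locus, at 1.08 and 1.39 per 100, or 0.534 and 0.630 without the locus of most counts. The locus at the 3′ end of Grb10, a growth suppressor expressed from 1 parental allele, had 26 and 19 counts against 59 and 47.

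Transcription factors of muscle and limb had more antisense counts per 100 of their own than all annotated genes pooled. Their own counts were few, 2330 in replicate 1 and 2059 in replicate 2, and genes of like abundance were not compared. Of the 28 with counts, 17 had a locus, and their 69 loci held 470 and 876 counts, or 20.2 and 42.5 per 100 counts of the genes. Without the locus of most counts, opposite Nfia, the values were 8.07 and 15.6. Myf5, which commits cells to the muscle lineage, had 17 and 45 antisense counts at its 3′ end, against 13 and 11 of its own. The largest intron locus of Mef2c, a MADS-box factor of muscle, had 15 and 27, against 460 and 381, and the exon locus of Nfix, another nuclear factor I gene, had 28 and 34, against 216 and 144. Over the start of Myod1, the master regulator of myogenesis, antisense models had 0 and 8 counts, while other models on the same strand there had 7 and 0.

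Agreement between the libraries was tested per locus with a two-sided Fisher's exact test on the counts, with Benjamini-Hochberg adjustment over 12459 annotated genes, antisense loci and intergenic loci with at least 10 counts. This compares the 2 libraries and not 2 conditions, and holds counting error only. Of the 1364 antisense loci tested, 105 (7.70%) differed at an adjusted p under 0.05, against 9.54% of all features and 9.68% of annotated genes. The direction was uneven. In replicate 1, 88 loci (6.45%) were lower and 17 (1.25%) higher, whereas annotated genes split evenly, with 4.83% lower and 4.84% higher, and all features had 5.04% lower and 4.49% higher. The 68 intergenic loci tested had 23.5% called, 10.3% lower and 13.2% higher. Of the 1350 loci with at least 10 counts and counts in both libraries, 993 (73.6%) had a higher CPM in replicate 2. Replicate 2 was also the library with nearly all epidermal counts and more counts of Mbp and Pmp22.

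**Figure D5:**
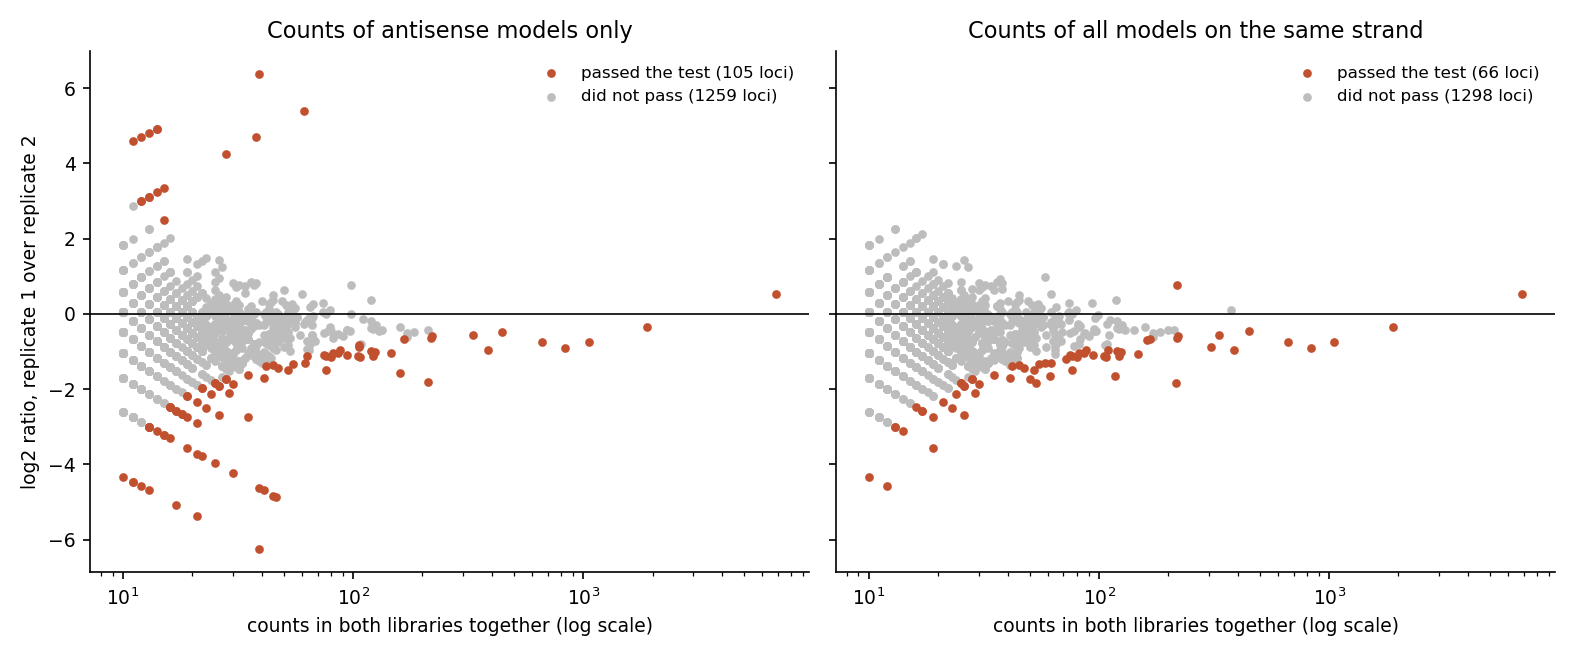
Log2 ratio of CPM, replicate 1 over replicate 2, against summed counts (log scale) for the 1364 antisense loci with at least 10 counts, with loci that passed Fisher's exact test in orange. Left, counts of models classed as Antisense, with 105 loci passing; right, with the counts of all other models on the same strand over the same exons added, with 66 passing, where most of the extreme ratios of the left panel are gone.

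Among the most abundant loci that differed, the Klhl31 locus had a log2 ratio of -0.36 (95% interval -0.49 to -0.23; Fisher's exact test, adjusted p = 4.4e-06). For the Sept2 locus it was -0.75 (-0.93 to -0.56; Fisher's exact test, adjusted p = 3.4e-14), and for the Nfia locus -0.91 (-1.12 to -0.70; Fisher's exact test, adjusted p = 1.5e-16). The locus opposite 5430431A17Rik, with 45 and 167 counts, was at -1.82 (-2.34 to -1.35; Fisher's exact test, adjusted p = 2.2e-14). The Gm26917 locus went the other way at 0.53 (0.46 to 0.60; Fisher's exact test, adjusted p = 4.2e-49). With a spread between samples assumed (edgeR's exact test, preset coefficient of variation 0.2), 16 antisense loci were called in place of 105, and of these 5 loci 5430431A17Rik passed (adjusted p = 0.027), while Nfia (0.91), Klhl31, Sept2 and Gm26917 (1 each) did not. In the muscle lists, 3 of 21 contractile loci tested passed (Tpm1, Ttn and Neb), as did 3 of 15 transcription factor loci (Nfia and Myf5 among them), all 6 lower in replicate 1. Against 7.70% of all antisense loci and 9.54% of all features called, these small counts are not a result about the lists. None passed of 6 calcium-handling, 5 matrix, 3 imprinted and 1 energy loci. The Tpm1 locus had 15 and 40 counts, the Ttn intron locus 12 and 35, and the Neb locus 4 and 31.

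Many of the largest ratios did not hold when reads on the same strand were counted whatever their class. Opposite Dmd, antisense models had 60 counts in replicate 1 and 1 in replicate 2, but other models over the same exons had 0 and 100. Opposite Camk2b the antisense counts were 1 and 45 and the others 35 and 2, opposite Klhl9 they were 1 and 44 with others of 35 and 1, and opposite Hnrnph3 0 and 39 with others of 25 and 0. The Neb locus, at 4 and 31, had others of 27 and 0. Some loci with large ratios kept them, as those opposite Cfap57, at 0 and 12, and Luc7l3, at 1 and 18, had no counts on other models. Of the 105 loci that differed, 49 had such other models, and with them added 11 of the 49 still passed the test and 12 turned round. The other 56 loci had none, and all 56 were lower in replicate 1. With other models added to all 1364 loci, 66 passed and 2 of these were higher in replicate 1. Only models classed as Antisense define the loci here, and reads of the same strand that were given another class are not in their counts.

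Spike-in RNAs were also counted by strand, as their reference entries give it, which was not checked against their sequences. In each library 44 spike-ins had sense counts, 26345 in replicate 1 and 15034 in replicate 2, and none of these had an antisense count. Another 4 spike-ins in replicate 1 and 3 in replicate 2 had antisense counts only, 262 and 136 in sum. For the 44, a count of 0 allows up to 3 counts, or 0.0114% and 0.02% of the sense counts. The limit applies to these spike-ins only, which were set apart by their own counts, and it leaves out those with antisense counts only. Whether it holds for the muscle's transcripts was not tested.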

How the data were processed

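Reads were turned by the authors into transcript models in the TALON format, with genome mm10 and GENCODE M21, per the deposited readme files. No label or file used here states the aligner, the platform or the filters. The deposited values are raw counts of reads per model, with no normalization; replicate 1 had 1066347 counts and replicate 2 1100253, of which 1039740 and 1085083 were not spike-ins. Model coordinates came from the deposited annotation of each library.

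Antisense models were merged per strand where they overlapped by at least 1 base. The opposite gene was the annotated gene of the other strand with the longest overlap. CPM use the mouse counts. Fisher's exact test (scipy 1.17.1; pandas 2.3.3, Python 3.11.15) was two-sided, with a prior count of 0.5 for log2 ratios only. It was tried on simulated counts with counting error only, which cannot show how it behaves with further spread between libraries. With 1 group, edgeR's quasi-likelihood test could not be fitted; edgeR 4.0.16 with a preset dispersion and DESeq2 1.42.0 size factors were alternatives. Named loci were the 20 with the most counts, the 10 spliced and the 3 per position class with the most, the 5 per direction with the largest ratio among those passing the test, and those with at least 5 counts opposite listed genes. The measure of A past 3′ ends was planned for a genome of the build and was made only where GENCODE M21 exons cover the bases.

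The members and gene lists were chosen with earlier results of these data known. The split of 3′ ends by exon boundary, the intron ends, the strand counts, the repeats and the counts of other models were chosen after seeing the data. Intervals and the limit of 3 counts cover counting error only. A few items are not reported here.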

Additional observations from a re-analysis of the deposited data

Results flagged for a closer look

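Antisense counts appeared on ERCC spike-ins, which are outside the counts used above and single-stranded by design. They summed to 262 in replicate 1 and 136 in replicate 2. ERCC-00009 had 166 and 105, ERCC-00116 had 93 and 27, and ERCC-00099 had 2 and 4. These spike-ins had antisense counts only and no sense count, while the 44 with sense counts had no antisense count. The strand of each spike-in was taken as its reference entry gives it and was not checked against its sequence, which limits what these counts mean.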

How the results depend on the processing

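No paired analysis was possible because the study has 1 group. The number of loci, 21186, was 9591 with at least 2 counts, 6868 with at least 1 in each library, and 12201 to 16227 with 1 replicate left out. Under the first 2 of these settings the 3′ end share of loci was 4.86% and 5.39%, the intron share 44.7% and 41.6%, the exon share 45.7% and 48.2%, and the share with a spliced model 8.17% and 10.6% (6.04 to 6.39% with 1 replicate left out). Loci with at least 2 counts in each library numbered 2999. The share of introns equal to one of the other strand was 30.02 to 34.8% with 1 replicate left out and 24.8% over all spliced models of antisense genes. Among readable 3′ ends, the A-rich share was 34.9% at 50% A and 27.3% at 70% A. The number of loci that differ was 16 with edgeR and a preset coefficient of variation of 0.2, and 54 with no count minimum. With other same-strand models added, the log2 ratio turned to -0.68 at Dmd, -1.65 at the unnamed chromosome 11 locus and 0.12 at Slc3a1, by the construction of that alternative. A locus of 1 count lies under the limit of 3 counts, so its absence from the other library was not detectable as a difference at this depth.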
